A study of Mus musculus with 9 samples.

Results

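Messenger RNA levels are described here in NIH 3T3 cells, an immortalised line of mouse embryonic fibroblasts, at the baseline that the study's control cultures provide. The series held 9 libraries in 3 groups of 3 cultures, and the 3 libraries named shControl were the members, chosen by that name alone. The cells of these cultures were transduced with a lentivirus coding for a short hairpin RNA against red fluorescent protein, a gene they do not carry, and were selected for its expression. They are therefore transduced and selected cells, not untreated ones, and all 3 cultures share that history, growth as a monolayer on plastic and the same library chemistry. The other 6 libraries carried hairpins against Cnksr2 and were not used for any level. Each culture was grown independently, per the design text, so the spread given below is that between separate cultures of 1 line.

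Levels are in FPKM, fragments per kilobase of transcript, scaled to a common number of mapped fragments, a unit that divides by length so that genes can be compared with each other. The table held 10340 genes, each above 1 FPKM in all 9 libraries. One that reached only 1 FPKM or lower in any of them, hairpin libraries included, would not meet this, so a gene without a value may still have been transcribed in the control cultures. No mitochondrially encoded gene was in the table. Ranks, highest genes and shares of the summed FPKM therefore hold among the genes in the table, not over all transcripts of the cells. Fragment counts and depth are unknown. The SD over the 3 cultures gives the spread between them, and does not cover errors in how reads were divided among similar genes. With 3 cultures, an exact sign-flip test between any pair of genes cannot give a p below 0.25. No such test was made, and neighbours in an order of levels are said to overlap where their ranges over the cultures do.

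Fibroblasts build the extracellular matrix of connective tissue. They secrete fibrillar collagens, fibronectin and proteoglycans, cross-link and remodel them with oxidases and proteases, and pull on them through integrins tied to actin stress fibres. In culture they divide in answer to serum factors, among them the platelet-derived growth factors, and 3T3 lines are a classic system for genes switched on by serum.

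The 3 cultures were close to each other. Pearson's r between log2(FPKM + 1) values over the 10340 genes was 0.998 for each of the 3 pairs, and no pair of columns was identical. The median absolute log2 difference was 0.040 between cultures 1 and 2 and 0.065 between either of them and culture 3. Culture 3 differed from the others along the base composition of transcripts. The deviation of a gene from its mean over the cultures had a Spearman's rho with transcript GC content of -0.53 in culture 1, -0.46 in culture 2 and 0.74 in culture 3, across 10033 genes with a coding sequence in the annotation. Genes are not independent replicates, and the 3 deviations of a gene sum to 0. GC-rich genes therefore tend to read slightly higher in culture 3, which bears on several groups below.

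The label of a fibroblast line was checked against marker genes. Of 20 fibroblast markers, 17 had a value, with a median of 162 FPKM beside 13.3 FPKM over all genes. They ran from 7.72 to 4552 FPKM, and Col3a1 was among those below the median of all genes. The marker lists were written with earlier results of these data known. S100a4, a calcium-binding protein also called fibroblast-specific protein, stood at 4734, 4432 and 4491 FPKM in cultures 1, 2 and 3. Vim, the intermediate filament protein vimentin, read 1179, 1224 and 1223 FPKM, and Thy1, a surface glycoprotein of many fibroblasts, 77.0, 76.2 and 80.9 FPKM. The platelet-derived growth factor receptor genes Pdgfra and Pdgfrb averaged 35.0 ± 0.818 and 30.7 ± 1.37 FPKM (SD, n = 3). Fap, Lum and Postn were the fibroblast markers without a value. None of 14 epithelial markers had a value, among them Epcam, Cdh1 and the keratins Krt8 and Krt18. Of 12 endothelial markers 1 had one, Egfl7 at 3.32 FPKM, and of 15 haematopoietic markers 2 did, Cd14 at 5.57 and Cd68 at 2.50 FPKM, while Ptprc and Csf1r did not. Neuronal and glial markers gave 2 of 15, Map2 at 2.44 and Tubb3 at 2.32 FPKM, and skeletal and cardiac muscle markers 1 of 13, Tnnt2 at 4.16 FPKM.

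Markers of other mesenchymal cell types were partly present. Acta2, the smooth muscle actin, reached 80.5 ± 4.51 FPKM, Tagln, an actin-binding protein of smooth muscle, 39.0 ± 2.08 FPKM and Smtn 16.3 ± 1.05 FPKM, but Myh11, Cnn1 and Myocd, which define contractile smooth muscle, had no value. The adipocyte markers with a value were Fabp4, Lpl, Retn and Lipe, between 2.25 and 8.32 FPKM, and Pparg, Adipoq and Plin1 had none. Of the cartilage and bone list, Spp1, Sox9 and Runx2 had values, and Col2a1, Acan, Sp7 and Bglap did not. In bulk RNA, fewer cells of a type and less RNA per cell cannot be told apart, so these levels do not say whether all cells or a few carried the transcript.

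The distribution of levels was wide. The median gene stood at 13.3 FPKM, the middle of the distribution ran from 6.19 to 28.9 FPKM by quartiles, and the highest gene was 422 times the median. At or above 10 FPKM were 6147 genes (59.4%), which held 94.96% of the summed FPKM. At or above 100 FPKM were 672 genes (6.499%) with 59.1% of the sum, and at or above 1000 FPKM were 61 genes (0.590%) with 24.5%. The 10 highest genes took 7.44%, 7.39% and 7.37% of the sum in cultures 1, 2 and 3.

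Translation genes led the order. Eef1a1, the elongation factor that brings aminoacyl-tRNA to the ribosome, was the highest gene at 5626, 5578 and 5653 FPKM. The ribosomal proteins Rplp1, Rpl41 and Rpl38 followed S100a4 at 3889 ± 31.1, 3617 ± 122 and 2963 ± 57.0 FPKM. Of the 25 highest genes 18 coded for cytosolic ribosomal proteins, and of the 100 highest 63 did. The table held 83 ribosomal protein genes, with a median of 1011 FPKM, and together they took 21.8% ± 0.174 (SD, n = 3) of the summed FPKM. This list was drawn by symbol from the genes in the table, so it cannot show ribosomal protein genes without a value. Their levels were not equal, although the ribosome holds most of these proteins as single copies. Rpl34 read 35.9, 36.5 and 36.1 FPKM, Rpl30 averaged 63.6 and Rps15a 77.3 FPKM, against 3889 for Rplp1. Ribosomal protein genes have many processed pseudogenes, and how the authors' counting divided reads between such copies is not given in the sources used here.

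The other genes among the 25 highest were Lgals1, Tpt1, Ppia, Ptma and Fth1, besides Eef1a1 and S100a4. Lgals1, galectin-1, a galactoside-binding lectin that cells export, read 2477, 2478 and 2595 FPKM. Tpt1, the translationally controlled tumour protein, and Ppia, the cyclophilin A prolyl isomerase, averaged 2407 ± 45.6 and 2298 ± 12.5 FPKM. Ptma, the acidic nuclear protein prothymosin alpha, and Fth1, the ferritin heavy chain that stores iron, averaged 2018 ± 11.5 and 1809.9 ± 24.9 FPKM. Among the 25 highest genes, 16 of 24 neighbouring pairs overlapped between the cultures, so the order within most of the list is not fixed.

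**Figure D1:**
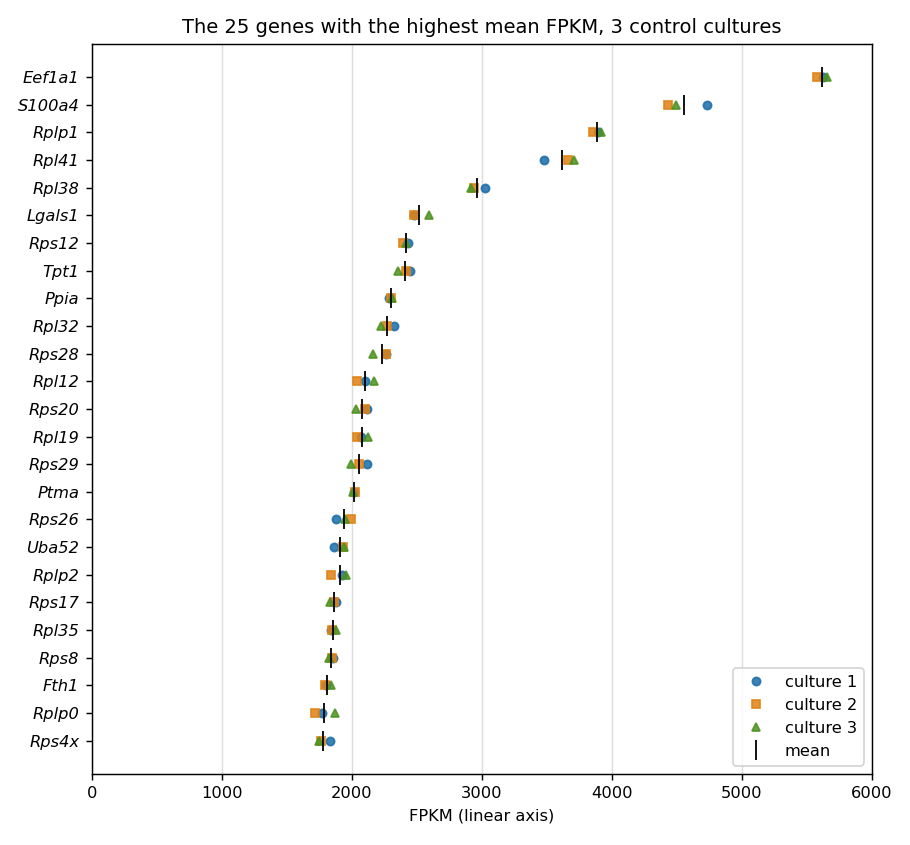
FPKM of the 25 genes with the highest mean in each of the 3 control cultures (one symbol per culture, black bar for the mean, linear axis from 0). Eef1a1 and S100a4 stand above the rest, and 16 of 24 neighbouring pairs overlap.

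Messenger RNAs of ribosomal proteins carry a terminal oligopyrimidine tract, a C at the first base followed by a run of pyrimidines, through which growth signals control their translation. The bases around the annotated starts of 6 ribosomal protein genes are shown because this tract is what the most abundant class is known for. Sequences are from RefSeq, build GRCm38.p6, 15 bases before the start and 15 from it on, read along the gene's strand, 5′ to 3′, with the start base and the pyrimidine run in capitals.
Rpl38: agcggaagcctcgttCTTTCCCCgttctct
Rplp2: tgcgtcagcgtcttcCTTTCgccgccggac
Rpl35: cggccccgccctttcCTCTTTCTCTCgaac
Rps10: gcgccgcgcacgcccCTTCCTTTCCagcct
Fau: tgcgcgcccccacttCTTCCTCTTTCTTga
Rps6: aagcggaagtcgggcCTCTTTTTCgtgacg
They lie at chr11:114668565-114668594 (+ strand), chr7:141447636-141447665 (+ strand), chr2:39005117-39005146 (− strand), chr17:27635230-27635259 (− strand), chr19:6057932-6057961 (+ strand) and chr4:86857353-86857382 (− strand). A C at the annotated start with at least 4 further pyrimidines was found for 13 of 62 ribosomal protein genes with a promoter in the table (21.0%), for 198 of 8327 genes with a value (2.38%) and for 673 of 27025 promoters in all (2.49%). Only the gene's own strand was searched. A start annotated a base away from the one the cells use gives no match, so the share rests on the annotation.

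FPKM divides by length, and the highest genes were short. The median coding length was 405 bases for the 25 highest genes and 1398 bases over 10033 genes, and level and coding length had a Spearman's rho of -0.21 across those genes. With FPKM multiplied by coding length, which is nearer to the mass of coding RNA, 7 of the 25 highest genes stayed among the 25 highest. Ribosomal protein genes among the 25 then numbered 6. Fn1, Flna, Col1a2 and Vcan, all with long coding sequences, entered at places 3, 19, 20 and 25, and the receptor gene Il1rl1, with a coding length of 1701 bases, at place 10. The length taken was that of the longest annotated coding isoform, which for Naca and Gnas (places 2 and 7), and for Il1rl1, which also has a secreted form, need not be the one these cells make.

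Of 156 matrix genes listed, 111 had a value, with a median of 29.3 FPKM, and 25 of them (22.5%) reached 100 FPKM, against 6.499% of all genes. They took 2.02% ± 0.0301 of the summed FPKM (SD, n = 3). The highest was Bgn, the small proteoglycan biglycan, at 803, 825 and 839.6 FPKM. Spp1, the secreted phosphoprotein osteopontin, read 782, 757 and 745 FPKM and Fn1, fibronectin, 468, 474 and 496 FPKM. Culture 1 was lowest for Bgn and Fn1 and highest for Spp1, and the ranges of these 3 genes did not overlap.

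Among collagens, 13 of 19 genes had a value. Type I collagen, the main fibrillar collagen of skin and bone, was led by Col1a2 at 303, 294 and 332 FPKM, with Col1a1 at 157, 153 and 178 FPKM. Culture 3 was the highest for both chains, and culture 2 the lowest. The triple helix holds more α1 than α2 chains, whereas the Col1a2 transcript was the more abundant in each culture. The type VI microfibrillar chains Col6a1, Col6a2 and Col6a3 averaged 119 ± 4.91, 66.4 ± 3.71 and 49.3 ± 1.28 FPKM. Type V chains, which set the diameter of type I fibrils, averaged 48.4 ± 2.11 (Col5a2) and 29.9 ± 2.23 FPKM (Col5a1), and Col5a2 overlapped Col6a3. Col3a1, the chain of type III collagen that accompanies type I in soft tissue, was at 11.9 ± 0.396 FPKM, below the median of all genes. Col2a1 of cartilage and Col7a1 of anchoring fibrils had no value.

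Of the basement membrane list 14 of 23 genes had a value, and Nid1, the linker protein nidogen-1, was far above the rest at 249, 249 and 251 FPKM. The laminin chains Lamb1 and Lamc1 averaged 43.4 ± 0.408 and 39.5 ± 1.27 FPKM, and the one laminin α chain with a value was Lama4 at 10.1 ± 0.0207 FPKM. Type IV collagen, the sheet-forming collagen, was present as 4 chains. Col4a5 and Col4a6, at 25.3 ± 0.981 and 19.6 ± 0.762 FPKM, stood above Col4a1 and Col4a2 at 18.5 ± 1.18 and 16.3 ± 1.04 FPKM. The Col4a5 range did not overlap those of Col4a1 and Col4a2, whereas Col4a6 (19.7, 18.8 and 20.4) and Col4a1 (17.8, 17.9 and 19.9) overlapped.

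Elastic fibre genes with a value numbered 12 of 17. The fibulins Fbln2, Efemp2 and Efemp1 led with 207 ± 11.8, 138 ± 7.67 and 134 ± 1.73 FPKM, and Fbln5 stood at 26.5 ± 0.0916 FPKM. Ltbp1 and Ltbp3, which hold latent transforming growth factor beta in the matrix, averaged 39.0 ± 1.24 and 40.7 ± 3.13 FPKM, and their relative Ltbp2 32.2 ± 1.98 FPKM. Fbn1, the main microfibril protein, was at 6.80 ± 0.152 FPKM, and Eln, the elastin gene itself, had no value. Decorin (Dcn), the collagen-binding proteoglycan related to biglycan, read 169, 190.0 and 168 FPKM, with culture 2 the highest. Vcan, the large proteoglycan versican, averaged 121 ± 4.26 FPKM, and the cell surface syndecans Sdc4, Sdc2 and Sdc1 74.2, 48.9 and 34.5 FPKM.

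Below Spp1 and Fn1, the list of matrix glycoproteins and matricellular proteins, whose products tune the dealings of cells with matrix, went on with Sparc at 219 ± 6.71 FPKM, Fstl1 at 128 ± 1.46 FPKM and Cyr61 at 124 ± 6.60 FPKM. Cyr61 and its relative Ctgf, both known targets of the YAP and SRF pathways, were highest in culture 2, with 118, 131 and 123 FPKM for Cyr61, and 51.5, 58.6 and 54.0 FPKM for Ctgf. The thrombospondins Thbs1 and Thbs2 and tenascin-C (Tnc) lay between 68.1 and 83.3 FPKM. Tgfbi stood near the floor at 2.27 ± 0.126 FPKM.

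Collagen processing genes had 18 of 20 with a value. Lox, the lysyl oxidase that cross-links collagen and elastin, averaged 254 ± 4.49 FPKM, well above its relatives Loxl1 at 66.3 ± 6.08 and Loxl3 at 21.2 ± 1.27 FPKM. P4hb, a disulfide isomerase and subunit of prolyl hydroxylase, averaged 243 ± 3.42 FPKM, and the catalytic subunits P4ha1, P4ha2 and P4ha3 were at 25.05, 19.4 and 12.5 FPKM. Serpinh1, the collagen chaperone HSP47, and Pcolce, an enhancer of procollagen cleavage, averaged 194 ± 9.13 and 177 ± 11.3 FPKM. Bmp1, the procollagen C-proteinase that Pcolce assists, was at 15.9 ± 0.736 FPKM.

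The metalloproteinase inhibitors Timp2 and Timp1 outranked the metalloproteinases. Timp2, Timp1 and Timp3 averaged 305 ± 3.61, 187 ± 5.46 and 66.1 ± 1.40 FPKM. Mmp2, a gelatinase, read 106, 109 and 112 FPKM, and Mmp14, the membrane protease that activates it, 75.02, 78.4 and 80.3 FPKM. The Mmp2 range lay wholly below those of Timp2 and Timp1. Mmp3, Mmp9 and Mmp13 had no value. The lysosomal cathepsin Ctsl was the highest gene of the list at 531, 520.0 and 521 FPKM, and Ctsd and Ctsb averaged 194 and 84.5 FPKM. Serpinf1, the antiangiogenic factor PEDF, was at 283 ± 9.04 FPKM.

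**Figure D2:**
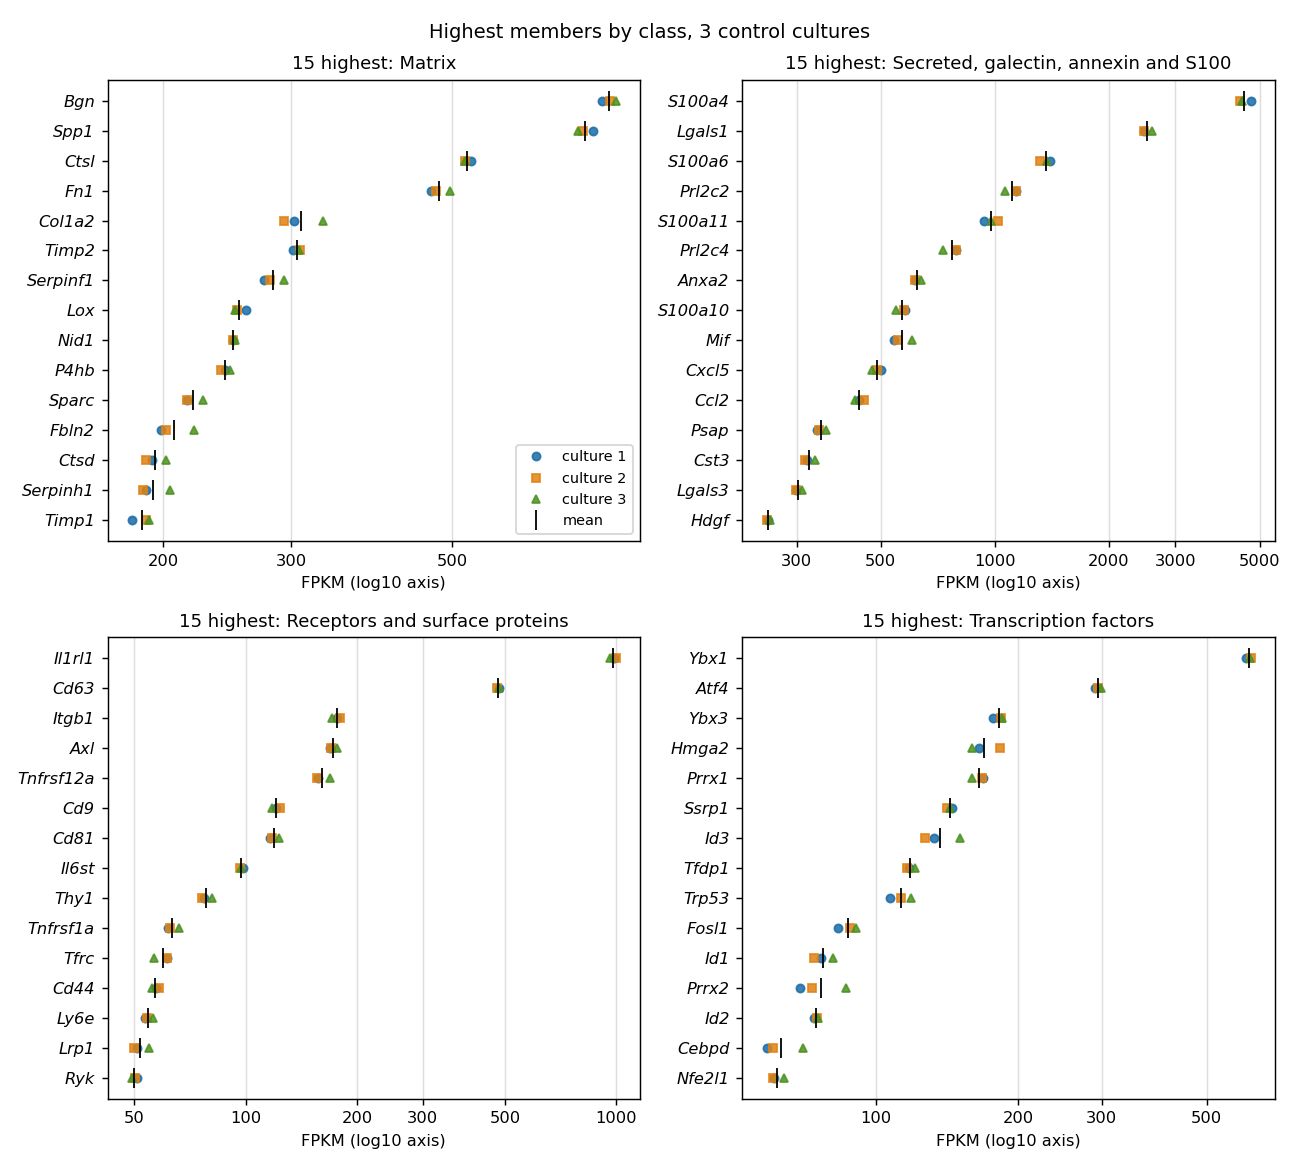
FPKM in each of the 3 control cultures (one symbol per culture, black bar for the mean, log10 axes) for the 15 highest members of the matrix, secreted, receptor and transcription factor lists. Bgn, S100a4, Il1rl1 and Ybx1 head the 4 panels, and neighbouring members overlap in 5, 1, 7 and 7 of 14 pairs.

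Cytoskeletal genes stood higher, with a value for 98 of 118 listed genes, a median of 60.9 FPKM and 36 genes (36.7%) at 100 FPKM or more. Their share of the summed FPKM was 3.41% ± 0.0641 (SD, n = 3). Next to Vim by mean, the cytoplasmic β-actin gene Actb read 1110.1, 1172 and 1255 FPKM, a range that overlapped that of Vim, and the γ-actin gene Actg1 744, 777 and 816 FPKM. Both were lowest in culture 1 and highest in culture 3, and their sum was 1854, 1949 and 2071 FPKM. Acta2 followed the same order at 75.3, 82.2 and 83.8 FPKM. Actin-binding proteins were led by Cfl1, the filament-severing cofilin, at 1093 ± 34.1 FPKM, and Pfn1, the monomer-binding profilin, at 551 ± 25.4 FPKM. The monomer-sequestering thymosins Tmsb10 and Tmsb4x averaged 533 ± 26.4 and 511 ± 31.0 FPKM, and their ranges overlapped.

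Non-muscle myosin was present as light chains Myl6, Myl12a and Myl12b at 634, 242 and 124 FPKM, and heavy chains Myh9 and Myh10 at 108 ± 3.20 and 61.2 ± 0.582 FPKM. The tropomyosins Tpm4, Tpm1 and Tpm3, which coat actin filaments, lay between 219.6 and 287 FPKM. Of 21 focal adhesion genes 20 had a value, with a median of 27.7 FPKM. Zyx (zyxin) was the highest of them at 113, 115 and 132 FPKM, Vcl (vinculin) read 41.0, 41.2 and 40.9 FPKM and Tln1 (talin) 34.5, 32.8 and 36.2 FPKM. Vinculin hardly differed between the cultures, while zyxin was highest in culture 3.

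Tubulins were led by Tubb5 and Tuba1b at 597 ± 25.5 and 595 ± 30.1 FPKM, whose ranges overlapped, and Tuba1a and Tuba1c followed at 310.3 ± 19.95 and 290.5 ± 15.2 FPKM. The α-tubulin genes are near-identical in coding sequence, so how reads were shared among them is uncertain, and their sum was 1174, 1169 and 1285 FPKM. All 6 β-tubulin genes listed had a value, down to Tubb3 at 2.32 FPKM. Lmna, coding for lamins A and C, averaged 259 ± 10.4 FPKM and the B-type lamins Lmnb1 and Lmnb2 40.2 ± 0.686 and 15.5 ± 1.05 FPKM. Plec, the cross-linker plectin, averaged 37.9 ± 1.97 FPKM, and the other intermediate filament genes listed (Des, Nes, Gfap, Krt7, Krt8, Krt18, Krt19, Nefl, Nefm and Sync) had no value.

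Many actin cytoskeleton genes are known targets of serum response factor (SRF), which binds the CArG box, CCNNNNNNGG with each N an A or a T. As a pattern it reads the same on both strands, though the bases of a given box need not. Windows around the matches in 5 gene promoters are shown because they mark which members of this class carry the element close to the start, and that of Srf itself is added. RefSeq, build GRCm38.p6, gene strand, 5′ to 3′, box in capitals.
Actg1: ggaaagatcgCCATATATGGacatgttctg
Cnn2: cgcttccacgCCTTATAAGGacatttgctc
Vcl: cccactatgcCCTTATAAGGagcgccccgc
Fhl2: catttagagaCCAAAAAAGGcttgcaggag
Myl9: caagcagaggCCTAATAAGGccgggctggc
Srf: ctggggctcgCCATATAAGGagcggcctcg
Their positions are chr11:120348566-120348595 (− strand), chr10:79988534-79988563 (+ strand), chr14:20929161-20929190 (+ strand), chr1:43196838-43196867 (− strand), chr2:156775293-156775322 (+ strand) and chr17:46556225-46556254 (− strand). Within 250 bases before the start, 7 of 82 cytoskeletal genes with a promoter held a box (8.54%), against 90 of 8327 genes with a value (1.08%) and 378 of 27025 promoters (1.40%). The same window held none in 74 matrix genes. Cytoskeletal genes without a promoter window, Actb among them, were not searched. Levels of the 7 genes ran from Myl9, a smooth muscle light chain at 1.71, 2.32 and 2.65 FPKM, to Actg1, and Arpc4 and Fermt2 were the members not printed. Srf stood at 10.8 ± 0.890 FPKM, and its cofactors Mkl1 and Mkl2 at 13.7 and 6.89 FPKM. None of the 6 boxes shown contains TATAAA, the other promoter motif searched. A match describes letters in a window and not binding.

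Metabolic genes had 153 of 162 with a value, a median of 49.9 FPKM and 3.89% ± 0.0442 of the summed FPKM (SD, n = 3). The iron-storing ferritin chains headed the antioxidant list, with the heavy chain Fth1 at 1798, 1793 and 1839 FPKM and the light chain Ftl1 at 1623, 1613 and 1678 FPKM. Peroxiredoxin Prdx1 and thioredoxin Txn1, which reduce peroxides and disulfides, averaged 749.6 ± 19.2 and 574 ± 8.02 FPKM. Sod1, the cytosolic superoxide dismutase, was at 381 ± 5.87 FPKM and Sod2, the mitochondrial enzyme, at 26.5 ± 0.287 FPKM. The metal-binding metallothioneins Mt1 and Mt2 averaged 347 ± 12.0 and 266 ± 11.6 FPKM.

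Glycolysis ran from Pkm, pyruvate kinase, at 779, 764 and 845 FPKM down through Gapdh, Ldha, Pgk1 and Pgam1 at 604, 456, 434 and 339.7 FPKM. Culture 3 was the highest for Pkm and Gapdh. The entry enzymes were far lower, hexokinases Hk1 and Hk2 at 18.1 ± 0.592 and 12.3 ± 0.367 FPKM and phosphofructokinases Pfkm, Pfkl and Pfkp at 20.7, 20.3 and 3.998 FPKM. Slc2a1, the GLUT1 glucose transporter, averaged 55.1 ± 1.60 FPKM. Ldha outweighed Ldhb, the lactate dehydrogenase chain of oxidative tissue, which read 49.98, 49.4 and 50.2 FPKM. Eno1, enolase, had the largest spread of the metabolic genes listed (CV, SD over mean, 13.7%) at 100.2, 119.7 and 92.0 FPKM, and Eno1b, a near-identical copy, read 359.9, 332 and 399.7 FPKM. Of 1826 stretches of 50 bases in Eno1b transcripts, 1395 (76.4%) also occur in those of Eno1, and the sum of the 2 genes was 460.2, 452 and 492 FPKM.

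All 26 genes of the tricarboxylic acid list had a value, from Pcx, pyruvate carboxylase, at 7.25 to Mdh2, mitochondrial malate dehydrogenase, at 244, 234 and 254 FPKM, and the list median was 57.0 FPKM. All 28 genes of one-carbon, serine and nucleotide synthesis had one as well. Psat1, Phgdh and Psph make serine from a glycolytic intermediate, and averaged 201 ± 3.54, 112 ± 6.75 and 14.9 ± 0.612 FPKM. Rrm2 and Tk1, which supply deoxynucleotides in S phase, averaged 95.6 ± 0.457 and 123 ± 5.63 FPKM. Cholesterol synthesis had 21 of 22 genes with a value and a median of 33.6 FPKM, led by Fdps, farnesyl diphosphate synthase, at 133 ± 3.19 FPKM. Insig1, which retains the sterol-sensing machinery in the endoplasmic reticulum, was at 43.3 ± 0.118 FPKM, and Sqle, the squalene epoxidase, at 69.3 ± 1.46 FPKM. Fabp5 and Scd2, a fatty acid carrier and a desaturase, led lipid synthesis at 188 ± 6.996 and 159.7 ± 3.06 FPKM, with Acly and Fasn at 117 and 46.5 FPKM.

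Receptor and surface protein genes were lower, with 140 of 225 listed genes having a value and a median of 13.2 FPKM, next to 13.3 FPKM over all genes. Il1rl1 stood apart. This receptor for interleukin-33, also called ST2, was first described as a gene that serum induces in 3T3 cells and also gives rise to a secreted form. It read 986, 996 and 962 FPKM in cultures 1, 2 and 3 and ranked 63 of 10340 genes. The next highest member, the tetraspanin Cd63, read 481, 477 and 483 FPKM, and the ranges of the 2 genes lie far apart. A gene-level value does not separate the membrane receptor from the secreted form. Il1rap, the subunit that Il1rl1 needs to signal, was at 23.3 ± 1.44 FPKM, and Il33 had no value.

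Receptor tyrosine kinases had 21 of 41 with a value. Axl, the receptor of Gas6, was the highest at 169, 170.1 and 176 FPKM, and Ryk, a Wnt co-receptor, was the next at 50.1 ± 0.770 FPKM. The collagen receptor Ddr2 and Fgfr1 followed at 45.4 ± 0.877 and 40.8 ± 1.501 FPKM. Pdgfra (36.0, 34.5 and 34.6) lay above Pdgfrb (30.1, 29.7 and 32.2) in each culture without overlap. Met, the receptor of hepatocyte growth factor, averaged 22.2 ± 0.927 FPKM, and Igf1r and Insr 10.7 ± 0.105 and 6.26 ± 0.354 FPKM. Egfr, Kit, Csf1r, Kdr, Flt1 and the neurotrophin receptors Ntrk2 and Ntrk3 had no value.

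Of 25 integrin genes 9 had a value. Itgb1, the β1 chain shared by most matrix receptors, read 176, 179.8 and 171 FPKM, more than any α chain. Its partners Itga5, for fibronectin, and Itgav, for vitronectin and fibronectin, averaged 37.9 ± 0.654 and 23.8 ± 0.780 FPKM, and Itga6 and Itga3, for laminin, 15.1 ± 0.344 and 6.83 ± 0.373 FPKM. Itgb5 was at 20.03 ± 1.44 FPKM. Itga1, Itga2, Itga10 and Itga11, the α chains of the collagen-binding integrins, had no value. The adhesion receptor Cd44, which binds hyaluronan, averaged 57.1 ± 1.21 FPKM, and the cadherins Cdh11 and Cdh2 27.3 ± 0.270 and 22.6 ± 0.675 FPKM.

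Cytokine receptors had 26 of 31 with a value. Below Il1rl1 came Tnfrsf12a, the Fn14 receptor of TWEAK, at 161 ± 7.49 FPKM and Il6st, the gp130 chain of the interleukin-6 family, at 97.4 ± 0.739 FPKM. Osmr and Lifr, which pair with gp130, averaged 40.4 ± 1.29 and 6.503 ± 0.525 FPKM, and Il6ra 4.72 ± 0.163 FPKM. Tnfrsf1a, the main receptor of tumour necrosis factor, read 61.6, 62.5 and 66.1 FPKM, Il1r1 25.9, 25.8 and 25.4 and Tlr4 18.8, 18.2 and 17.2 FPKM.

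Of the transforming growth factor beta receptors, Tgfbr3, the co-receptor betaglycan, was the highest at 37.4 ± 0.283 FPKM, above the signalling receptors Tgfbr2 and Tgfbr1 at 15.5 ± 0.218 and 12.9 ± 0.484 FPKM. G protein-coupled receptors had 27 of 44 with a value. F2r, the thrombin receptor, Smo, the Hedgehog transducer, and Lpar1, a lysophosphatidic acid receptor, were the highest at 49.99 ± 1.78, 48.3 ± 2.62 and 38.1 ± 0.421 FPKM. Ptch1, the Hedgehog receptor that restrains Smo, was at 4.16 ± 0.446 FPKM. The sphingosine phosphate receptors S1pr3, S1pr1 and S1pr2 averaged 21.2, 14.6 and 13.7 FPKM. Nuclear receptors were led by Rarg, a retinoic acid receptor, at 45.7 ± 2.30 FPKM, and the glucocorticoid receptor Nr3c1 averaged 19.7 ± 0.624 FPKM.

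Secreted proteins and their relatives had 85 of 185 listed genes with a value, and took 3.96% ± 0.0305 of the summed FPKM (SD, n = 3), of which S100a4 and Lgals1 were the largest contributors. The S100 proteins, galectins and annexins of this list are mainly cytosolic and leave cells without a signal peptide. S100a6 and S100a11, calcium-binding relatives of S100a4, averaged 1363 ± 41.3 and 977 ± 41.3 FPKM, and Anxa2 with its ligand S100a10 624 ± 13.2 and 569 ± 17.9 FPKM. Lgals3 averaged 303 ± 6.10 FPKM.

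The highest hormone genes were the proliferins, prolactin relatives of the mouse placenta that were first cloned from serum-stimulated 3T3 cells. Prl2c2 read 1139, 1136 and 1067 FPKM and Prl2c4 793, 789 and 732 FPKM. Prl2c5, Prl2c3 and Prl2c1 averaged 76.8 ± 6.23, 23.7 ± 5.81 and 12.2 ± 0.220 FPKM, and the 5 Prl2c genes with a value summed to 2040.0, 2043 and 1912 FPKM, or 0.455% of all FPKM. Prl2c2, Prl2c4 and the sum were lowest in culture 3, while Prl2c3 was highest there at 18.2, 23.2 and 29.8 FPKM. Of 1030 stretches of 50 bases in Prl2c2, 752 (73.0%) also occur in Prl2c3 and 253 (24.6%) in Prl2c5, and 140 of 1086 (12.9%) in Prl2c3 also occur in Prl2c5. The sequence of Prl2c4 was not compared, and the division of reads among the copies is uncertain.

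Chemokines fell into high and low members. Of those that draw neutrophils, Cxcl5 read 502, 489 and 475 FPKM, and Cxcl1 148, 142 and 147 FPKM. Of those that draw monocytes, Ccl2 read 437, 452 and 429 FPKM, and Ccl7 163, 156 and 152 FPKM. Ccl2 and Cxcl1 are the JE and KC genes first found as platelet-derived growth factor-induced messages in 3T3 cells. Together the 4 genes took 0.280% of the summed FPKM. Cxcl12, the stromal chemokine, averaged 40.8 ± 0.601 FPKM, and the other 6 with a value lay between 2.05 (Il15) and 5.48 FPKM (Il18). Ccl5, Cxcl10, Il1b and Tnf had no value.

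Growth factors had 31 of 49 with a value. Mif, the macrophage migration inhibitory factor, was the highest at 542, 557 and 606 FPKM, and Hdgf averaged 252 ± 2.52 FPKM. Csf1, the growth factor of macrophages, read 129.5, 130.1 and 134 FPKM, and Fgf7, a fibroblast product that acts on epithelium, 125, 125 and 120.2 FPKM. Their ranges did not overlap. Kitl and Vegfa averaged 59.1 ± 3.73 and 22.7 ± 1.02 FPKM. Bmp2, Bmp4 and Bmp7, bone morphogenetic proteins, had no value. Of the transforming growth factor beta ligands, Tgfb3 and Tgfb1 averaged 8.74 ± 0.369 and 7.33 ± 0.527 FPKM, and Tgfb2 had no value. Of 24 Wnt ligands and antagonists 2 had a value, Wnt5a at 6.41 ± 0.360 and Dkk3 at 1.43 ± 0.117 FPKM. Ptx3, a pentraxin of innate immunity, was at 185 ± 10.4 FPKM and Cst3, the protease inhibitor cystatin C, at 323 ± 10.3 FPKM. Of complement genes, C1ra averaged 29.7 ± 0.245 and C1s1 58.2 ± 1.59 FPKM, and C3 had no value.

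A TATA box, TATAAA between 40 and 16 bases before the start on the gene's strand, was found in 6 of 63 secreted genes with a promoter (9.52%), in 84 of 8327 genes with a value (1.01%) and in 600 of 27025 promoters (2.22%). None of 112 receptor genes had one. The windows of 4 highly expressed genes are shown to place the element in S100a4, ranked 2 of 10340 genes, and in Vim, Ppia and Anxa1, the annexin A1 gene at 477 ± 16.2 FPKM. RefSeq, build GRCm38.p6, gene strand, 5′ to 3′, TATAAA in capitals.
S100a4: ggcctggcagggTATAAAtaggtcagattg
Ppia: gcccgaaccgggTATAAAggaagccgcggc
Vim: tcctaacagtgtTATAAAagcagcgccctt
Anxa1: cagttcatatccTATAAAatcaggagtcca
They lie at chr3:90603727-90603756 (+ strand), chr11:6415826-6415855 (+ strand), chr2:13574267-13574296 (+ strand) and chr19:20390686-20390715 (− strand), with the first T between 32 and 29 bases before the start. Of the 100 highest genes with a promoter 5 held the box there. No statement about initiation follows from these letters.

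Ligands and receptors were set side by side for 30 known pairs, which were chosen after the values had been seen. Both partners had a value in 16 pairs, the ligand alone in 13 and the receptor alone in 1, Il1rl1. Hgf read 21.5, 20.7 and 20.1 FPKM, and its receptor Met 22.1, 23.1 and 21.3 FPKM, so that their ranges overlapped. Axl at 172 FPKM exceeded its ligand Gas6 at 3.21 ± 0.0818 FPKM, whereas protein S (Pros1), at 27.0 ± 0.348 FPKM, exceeded its receptor Tyro3 at 5.30 ± 0.169 FPKM. Fn1 and its receptor chain Itga5 were at 479 and 37.9 FPKM, and Igf2 and Igf1r at 9.56 and 10.7 FPKM. Pdgfa and Pdgfc, ligands of Pdgfra, averaged 14.3 ± 0.418 and 17.7 ± 0.759 FPKM. Among ligands whose receptor had no value were Csf1 (Csf1r), Kitl (Kit), Bdnf (Ntrk2), Vegfa (Kdr) and Ereg (Egfr), at 131, 59.1, 13.7, 22.7 and 20.3 FPKM. Cxcl12 had a partner in Ackr3, its scavenging receptor, at 24.3 ± 0.685 FPKM, whereas Cxcr4 had no value.

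Transcription factor genes numbered 257 with a value of 360 listed, with a median of 10.8 FPKM, and 9 of them (3.50%) reached 100 FPKM, against 6.499% of all genes. They held 1.37% ± 0.0220 of the summed FPKM (SD, n = 3). The highest were Ybx1, a cold-shock protein that binds DNA and RNA, at 605, 619 and 618 FPKM, and Atf4, the bZIP factor of the amino acid and unfolded protein responses, at 291, 295 and 299 FPKM. Atf4 is strongly controlled in translation, which RNA levels do not show. Hmga2, a chromatin protein of embryonic cells, read 165, 183 and 159.7 FPKM and Prrx1, a homeobox factor of limb and craniofacial mesenchyme, 169, 168 and 159.6 FPKM, and the 2 ranges overlapped.

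Of the other members among the 15 highest, Ssrp1 is a histone chaperone subunit, at 143 ± 1.60 FPKM, and Tfdp1 the partner of E2F factors, at 118 ± 2.53 FPKM. The inhibitors of helix-loop-helix factors Id3, Id1 and Id2 averaged 137 ± 12.3, 77.4 ± 3.74 and 74.96 ± 0.789 FPKM. Id3 was highest in culture 3, as were Prrx2 (69.4, 73.5 and 86.8) and Cebpd (58.9, 60.8 and 70.2). Trp53, the p53 gene, read 108, 113 and 119 FPKM. Fosl1 was the highest AP-1 member at 87.5 ± 3.93 FPKM, above Fosl2, Jun and Junb at 43.8, 41.1 and 34.5 FPKM, and Fos and Fosb, which serum induces within minutes and only for a short time, had no value. Myc averaged 60.0 ± 1.06 FPKM.

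Factors tied to mesenchymal identity were Twist2 and Twist1 at 40.4 ± 2.88 and 22.6 ± 0.968 FPKM, Snai1 and Snai2 at 44.7 ± 3.96 and 11.2 ± 0.137 FPKM, and Zeb1 and Zeb2 at 16.6 ± 0.216 and 10.3 ± 0.615 FPKM. Osr1, Foxf2 and Tbx15, factors of embryonic mesenchyme, averaged 43.0 ± 1.90, 35.9 ± 2.16 and 19.6 ± 0.788 FPKM. Sox9, the factor of cartilage, read 30.9, 32.9 and 32.1 FPKM and Runx2, that of bone, 11.1, 11.4 and 11.2 FPKM. The Hippo coactivators Yap1 and Wwtr1 averaged 32.2 ± 0.886 and 26.7 ± 0.246 FPKM, and their DNA-binding partners Tead2 and Tead1 46.7 ± 1.71 and 19.3 ± 0.353 FPKM. The TGF-beta effectors Smad4, Smad3 and Smad2 were at 22.2, 14.9 and 7.53 FPKM.

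Hox genes, whose expressed set records where along the body axis a cell arose, had a value for 12 of 39. In cluster A, Hoxa2 to Hoxa7 all had one, while cluster B gave 0 of 10, cluster C 1 of 9 and cluster D 4 of 9. Hoxd8 was the highest at 18.1, 18.1 and 18.1 FPKM, and Hoxa5 the next at 9.43, 9.91 and 11.1 FPKM, with no overlap. Hoxa2, Hoxa3, Hoxa4, Hoxa6 and Hoxa7 lay between 2.64 FPKM (Hoxa4) and 7.63 FPKM (Hoxa3). Hoxc6, Hoxd9, Hoxd4 and Hoxd3 averaged 4.80 ± 0.215, 4.59 ± 0.309, 4.03 ± 0.0913 and 1.62 ± 0.229 FPKM. None of 12 genes of paralogue groups 10 to 13 had a value. Several of these levels are close to the floor of the table, so a gap in the pattern can be a gene just below 1 FPKM in any of the 9 libraries. The cofactors Pbx2 and Meis2 averaged 15.2 and 7.70 FPKM.

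Cell cycle genes had 33 of 36 with a value and a median of 42.3 FPKM. Cdk4 was the highest at 362, 357 and 382 FPKM, and its cyclins Ccnd1, Ccnd3 and Ccnd2 averaged 74.7 ± 0.885, 42.3 ± 3.37 and 29.5 ± 0.547 FPKM. The replication clamp Pcna read 231, 231 and 230.2 FPKM, the topoisomerase Top2a 193, 187 and 182 FPKM and the proliferation marker Mki67 62.7, 59.9 and 59.1 FPKM. Mcm2, Mcm3, Mcm5, Mcm6 and Mcm7 of the replicative helicase lay between 51.5 (Mcm5) and 102 FPKM (Mcm7). Among inhibitors, Cdkn2c, Cdkn1a and Cdkn1b averaged 50.4 ± 1.57, 40.5 ± 1.26 and 28.7 ± 0.833 FPKM. Cdkn2a, Cdkn2b and Cdkn1c had no value, and NIH 3T3 cells are known to lack the Ink4a/Arf locus. Rb1 was at 4.23 ± 0.234 FPKM, below its relatives Rbl1 at 14.4 ± 0.423 and Rbl2 at 7.31 ± 0.532 FPKM.

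The Ras to ERK pathway, which carries mitogen signals, had 33 of 35 genes with a value and a median of 16.5 FPKM. The kinase Mapk3 averaged 47.6 ± 1.74 FPKM, its activators Map2k2 and Map2k1 37.4 ± 3.10 and 29.3 ± 1.13 FPKM, and Araf and Braf 27.2 and 6.21 FPKM. Of the Ras genes, Nras read 22.9, 23.0 and 22.1 FPKM, and Hras 15.7, 15.6 and 16.8 FPKM, and these ranges did not overlap. The feedback inhibitors Dusp6 and Spry2 averaged 20.8 ± 0.415 and 20.2 ± 0.327 FPKM. Of scaffold genes, Cnksr3 was at 5.99 ± 0.400 and Ksr1 at 4.97 ± 0.421 FPKM, and Cnksr1 and Ksr2 had no value.

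Imprinted genes had 23 of 46 with a value. Gnas, the stimulatory G protein alpha subunit, read 511, 522 and 533 FPKM, Dlk1, a Notch-related inhibitor of adipocyte differentiation, 128, 129 and 146 FPKM and Grb10, a growth-restraining adaptor, 109, 105 and 107 FPKM. Meg3 and Rian, noncoding RNAs of the Dlk1 domain, averaged 28.3 ± 1.39 and 26.8 ± 0.430 FPKM. Igf2 was at 9.56 ± 0.439 FPKM and Igf2r, which clears its product, at 36.1 ± 0.652 FPKM, and H19, Peg10 and Mest had no value. Of 5 X-linked genes listed as tumour suppressors that escape X inactivation, Ddx3x, Atrx, Kdm5c and Kdm6a had values of 137 ± 4.28, 29.7 ± 1.67, 10.5 ± 0.197 and 6.24 ± 0.201 FPKM, and Cnksr2 was without a value. Cnksr2 is the target of the hairpins in the other 6 libraries, which the floor of the table also covers. Its absence therefore does not give its level in the control cultures.

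By class, with ribosomal protein genes (median 1011 FPKM) left aside, cytoskeletal genes had the highest median, then metabolic genes (49.9), matrix genes (29.3), growth control genes (24.6), secreted genes (17.7), receptors (13.2) and transcription factors (10.8 FPKM). The matching shares of members at 100 FPKM or more were 36.7%, 25.5%, 22.5%, 10.8%, 24.7%, 5% and 3.50%. These medians cover only members with a value, from 85 of 185 secreted genes to 153 of 162 metabolic genes, so they are not medians of the whole lists.

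**Figure D3:**
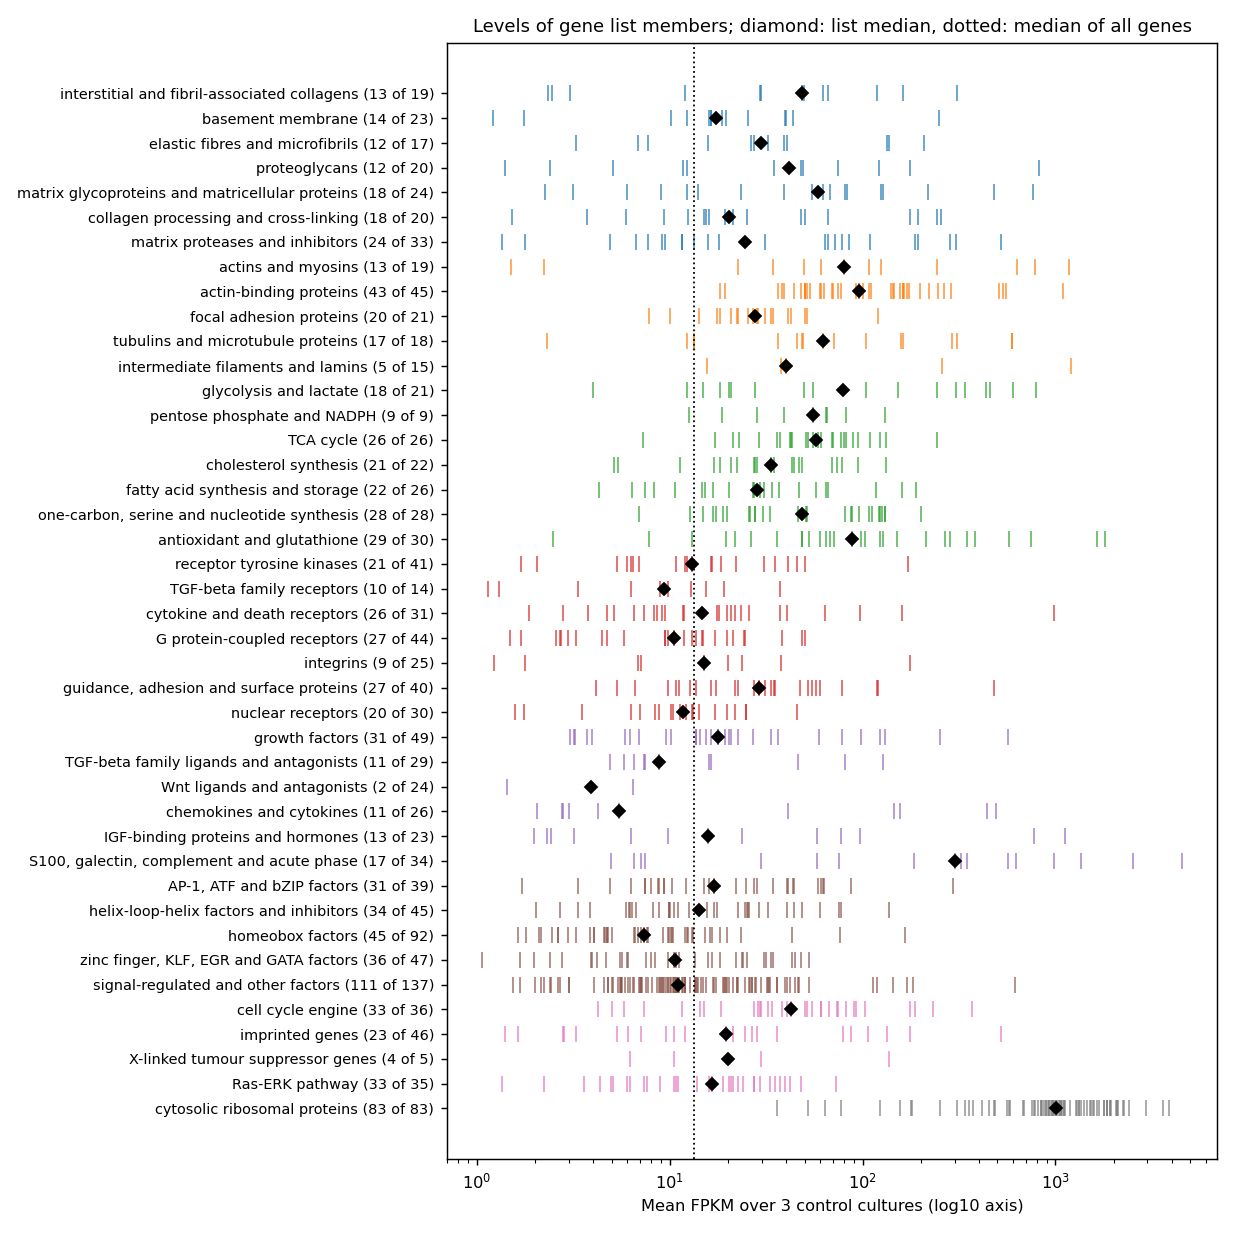
Mean FPKM over the 3 control cultures (log10 axis) of each member with a value, by gene list, with the list median (diamond) and the median of all genes (dotted line); brackets give members with a value of members listed. Ribosomal proteins, listed only from genes with a value, lie highest with a median of 1011 FPKM. Medians of receptor and transcription factor lists run from 7.32 (homeobox factors) to 28.9 FPKM (guidance, adhesion and surface proteins), on both sides of the 13.3 FPKM of all genes.

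The spread between cultures was small and depended on level. The median CV was 3.71% over all genes and the 95th percentile 10.3%. It fell from 7.30% for 418 genes between 1 and 2 FPKM to 3.42% for 3646 genes between 10 and 30 FPKM and 2.62% for the 61 genes at 1000 FPKM or more. A CV above 20% was found for 44 genes, of which 18 were small nucleolar RNA genes. On the log2(FPKM + 1) scale the SD exceeded 0.2 for 76 genes, for 54 with small nucleolar RNA genes left out, an alternative chosen after seeing the data, for 124 without culture 1 and for 119 without culture 2. It exceeded 0.2 for 156 and 182 genes with pseudocounts of 0.1 and 0.01, and for 42 with a minimum mean of 5 FPKM. Among the 10033 genes with a GC content it did so for 37, and for 24 with the GC trend removed. The count therefore rests on the settings. The 10 genes with the smallest CV at 100 FPKM or more were Pcna, Calr, Rpl23a, Txnrd1, Arl6ip5, Nhp2l1, Hspe1, Hint1, Rps6 and Psmd1. Pcna had a CV of 0.112% and Calr, the calcium-binding chaperone calreticulin, read 567, 568 and 567 FPKM with a CV of 0.113%.

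Small nucleolar RNAs guide the modification of ribosomal RNA and are short, with a median gene length of 121 bases here. The 26 with a value had a median CV of 34.8%, from 4.62% to 76.8%, and they made up 12 of the 15 most variable genes with a mean of at least 5 FPKM. Snord16a read 1691, 327 and 721 FPKM in cultures 1, 2 and 3, Snord33 478, 119 and 386 and Snora68 55.2, 219.7 and 201 FPKM. Their order among the cultures was not shared, with Snord16a and Snord33 highest in culture 1 and Snora68 lowest there. Snora28, Snora34, Snora41, Snora74a, Snora3, Snora64, Snora7a, Snora44 and Snora70 were the others, with CVs between 37.4% and 70.0%. The libraries were made with a kit for messenger RNA. Whether the values of these short genes measure the small nucleolar RNAs themselves was not tested.

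The remaining 3 of those 15 genes were Rps27, Rps27rt and Pisd-ps1, a pseudogene at 9.58, 24.6 and 19.1 FPKM. Rps27 read 1165, 1526 and 377 FPKM and Rps27rt, an intronless copy, 727, 447 and 1409.7 FPKM, so that culture 2 was highest for Rps27 and lowest for Rps27rt, and culture 3 the reverse. Their sum was 1892, 1972 and 1787 FPKM, with a CV of 4.95%. Of the 325 stretches of 50 bases in Rps27rt transcripts, 296 (91.1%) also occur in Rps27. The starts of both genes are printed to show the likeness, from RefSeq, build GRCm38.p6, 5′ to 3′, with the start base and the pyrimidine run in capitals.
Rps27: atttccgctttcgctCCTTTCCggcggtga
Rps27rt: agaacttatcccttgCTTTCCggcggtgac
They lie at chr3:90213634-90213663 (− strand) and chr9:114982725-114982754 (− strand). The level of either gene alone is uncertain for this reason, and the same holds for the Prl2c and Eno1 copies.

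**Figure D4:**
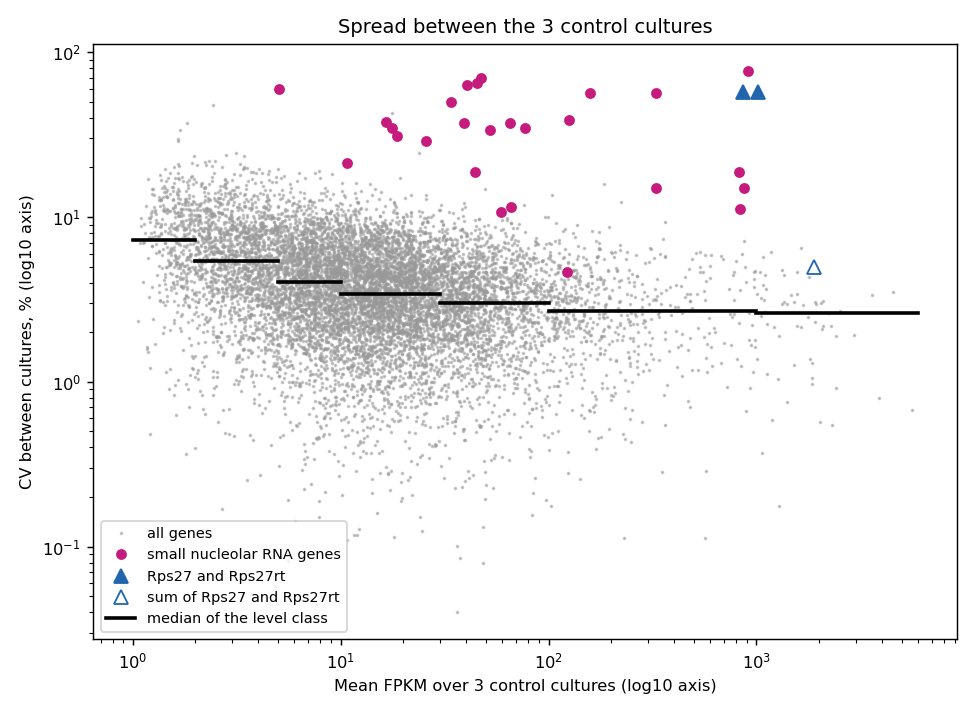
CV between the 3 control cultures (%, log10 axis) against mean FPKM (log10 axis) for all genes, with small nucleolar RNA genes, Rps27, Rps27rt and the sum of that pair marked and black bars for the median of each level class. Small nucleolar RNA genes lie up to 76.8%, and the sum of Rps27 and Rps27rt falls to 4.95%.

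Among gene lists chosen for their deviations in culture 3, GC content was above that of all genes. Deviations in culture 3 rose with GC content over all genes, so this follows in part from the choice of lists. Collagen genes of the interstitial list, with a median transcript GC content of 55.7% against 50.2% over all genes, had median deviations of -0.029, -0.037 and 0.070 on the log2(FPKM + 1) scale in cultures 1, 2 and 3, beside 0.0067 over all genes in culture 3. Elastic fibre genes (56.7% GC) stood at 0.091 and tubulins (53.2% GC) at 0.069 in culture 3. Integrins, with a higher median GC content of 57.5%, stood at 0.024. No correlation within a list was computed. With the median deviation of genes of like GC content taken off in 50 bins, an adjustment chosen after seeing the data, the culture 3 medians of collagen, elastic fibre and tubulin genes became 0.0076, 0.0099 and 0.026, and that of integrins -0.0025. The median SD over 10033 genes went from 0.048 to 0.035 on that scale. The bins were fitted to these same genes, so smaller deviations are built into the adjustment. The cause of the deviations was not tested.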

How the data were processed

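RNA of 9 cultures of NIH 3T3 cells was extracted with the Qiagen miRNeasy kit and made into Illumina TruSeq Stranded mRNA libraries, per the labels' protocols. The authors deposited FPKM values per gene, and the submitters' processing notes name STAR (written 25.1b), Cufflinks 2.2.1 and the mouse build mm9. The gene annotation is not given in the sources used here, and fragment counts and depth per sample are unknown. The lowest of the deposited values is 1.00147 FPKM, so the table holds genes above 1 FPKM in every library. The summed FPKM was 439537, 437208 and 441951 in control cultures 1, 2 and 3. The 3 columns of the control hairpin were used, the 6 columns of the hairpin libraries against Cnksr2 were not, and no column belonged to another sample.

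Means, SDs and ranks were taken over the 3 cultures, with log2(FPKM + 1) for deviations (Python 3.11.15, pandas 2.3.3, numpy 2.4.6, scipy 1.17.1, matplotlib 3.10.9). No test was made. Of 10340 symbols, 10304 matched RefSeq by symbol or a unique synonym, coding length and transcript GC content were found for 10033 genes, and a promoter window of 250 bases before and 50 after the start, build GRCm38.p6, for 8327 genes. The scripts were tested on simulated data. The gene lists and members were chosen with earlier results of these data known. Named by rule were the 25 highest genes, the 5 highest of each list, the 15 highest transcription factors, the 15 most variable genes with a mean of at least 5 FPKM and the 10 least variable at 100 FPKM or more. Other list members were named for their role, with their values seen. Some genes that these rules cover are not reported here. Alternatives were the pseudocount, floors on the mean, median-ratio and quantile scaling, the median or geometric mean of cultures, FPKM times coding length, and leaving out each culture. Removing small nucleolar RNAs, counting Rps27rt as a ribosomal protein gene and removing the GC trend were added after the data were seen.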

Additional observations from a re-analysis of the deposited data

How the results depend on the processing

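No paired analysis was possible because the values describe 1 group and come from no test. The count of genes with an SD above 0.2 on the log2 scale went from 76 to 156 with a pseudocount of 0.1, to 182 with 0.01 and to 42 with a minimum mean of 5 FPKM, and between 82 and 124 with each culture left out in turn (124 without culture 1, 119 without culture 2). Removal of the GC trend, chosen after seeing the data, left 24 genes, on the 10033 genes with a GC content, where the unadjusted count was 37, and leaving out small nucleolar RNA genes gave 54. Floors on the mean left both fewer genes in the sum and fewer members, and shares rose or fell. With a minimum mean of 5 FPKM the 10 highest genes took 7.51%, ribosomal protein genes 22.1%, metabolic genes 3.94%, secreted genes 4.01% and growth control genes 1.001%. With genes over 10 FPKM only, the 10 highest took 7.80%, ribosomal protein genes 22.9%, matrix 2.10%, cytoskeletal 3.59%, metabolic 4.08%, receptor 1.04%, secreted 4.13%, transcription factor 1.29% and growth control genes 1.02%. Ribosomal protein genes took 22.0% with Rps27rt counted, also chosen after seeing the data. Left-out cultures gave 7.38% to 7.42% for the 10 highest genes, 21.7% to 21.9% for ribosomal protein genes, 2.01% to 2.04% for matrix, 3.38% to 3.45% for cytoskeletal, 3.86% to 3.90% for metabolic, 1.05% for receptor, 3.94% to 3.97% for secreted, 1.36% to 1.39% for transcription factor and 0.992% to 0.997% for growth control genes. They gave 6131 to 6167 genes at 10 FPKM or more, 669 to 675 at 100 and 59 to 62 at 1000. Coding length stood in for protein length, which was not used here, and moved the rank of 50 of 52 named genes beyond the spread of their ranks over the cultures. The mean FPKM of the 65 named genes moved by less than 1 SD under median-ratio rescaling. The median of the cultures and the left-out cultures cannot move a mean of 3 values by 1 SD, so those settings are no check on it. Leaving out a culture moved 9, 10 and 13 of the ranks of these genes. Depth is unknown, so the counting error of genes near 1 FPKM cannot be separated from the spread between cultures.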
